A study of Mus musculus with 4 samples.

Results

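Genes that mark the zones of the liver lobule were followed in 4 mouse livers that differed in genotype and diet. The members were 10 genes picked by name from 23462 genes on the array. The 6 pericentral members were Glul, Oat, Axin2, Lgr5, Rhbg and Cyp1a2, and the 4 periportal members were Hal, Sds, Gls2 and Cdh1. Mboat7, which the study calls Lpiat1, encodes the acyltransferase that places arachidonic acid in phosphatidylinositol. Control mice with floxed alleles (F/F) and mice that also carry the albumin promoter-driven Cre transgene Alb-Cre (LKO), which deletes the gene in hepatocytes, were compared on a chow diet (CE2) and on a high fat diet (HFD-60). All were male, of C57BL/6 background and 24 weeks old, with the diets given for 18 weeks from 6 weeks of age. Total liver RNA was hybridised to 4 one-colour Agilent arrays, 1 per condition, and whether an array held 1 mouse or a pool is not given in the sources used here. With 1 array per condition no difference has a replicate check, so no p-value is given.

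Blood enters the liver lobule at the portal vein and leaves at the central vein, and hepatocytes divide their work along that path. Wnt ligands and R-spondins from the endothelium of the central vein keep beta-catenin signalling high in the hepatocytes around it, which is where glutamine synthesis and much drug oxidation take place. Periportal hepatocytes carry out most of the urea synthesis, gluconeogenesis and amino acid breakdown. In RNA from whole liver, fewer cells of a zone and less RNA per cell cannot be told apart.

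The 4 comparisons gave no ordered shift from one zone to the other. The members within a zone differed far more among themselves than the zones differed from each other. The widest differences were in Cyp1a2, which was lower on both HFD arrays, and in Cdh1, Lgr5 and Hal, which stood apart on the LKO HFD array.

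Cyp1a2 and Hal, the members with the widest range in each zone apart from Cdh1, had an entry in the RefSeq promoter table (GRCm38.p6), which held 5 members in all (the others were Glul, Oat and Axin2). The 250 bases before their annotated start sites are shown because the largest differences of Cyp1a2 followed diet and those of Hal genotype and diet together. The Cyp1a2 stretch lies at chr9:57683656-57683905 on the minus strand, and the Hal stretch at chr10:93488518-93488767 on the plus strand. Capitals mark letters matching, on either strand, the T-cell factor letters ATCAAAG or TTCAAAG, the E-box CACGTG, the aryl hydrocarbon receptor core GCGTG or the letters TATAAA.
Cyp1a2: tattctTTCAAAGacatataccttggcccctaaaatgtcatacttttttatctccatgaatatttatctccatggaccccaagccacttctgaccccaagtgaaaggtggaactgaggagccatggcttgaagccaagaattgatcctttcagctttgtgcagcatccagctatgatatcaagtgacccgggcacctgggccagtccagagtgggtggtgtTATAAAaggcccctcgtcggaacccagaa
Hal: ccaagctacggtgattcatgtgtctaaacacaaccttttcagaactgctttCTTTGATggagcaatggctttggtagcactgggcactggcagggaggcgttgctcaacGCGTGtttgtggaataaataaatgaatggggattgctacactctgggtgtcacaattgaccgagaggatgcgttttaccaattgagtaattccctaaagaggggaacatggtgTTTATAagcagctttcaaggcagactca
The Cyp1a2 stretch held TTCAAAG starting at -244 from the start site and TATAAA at -29. The Hal stretch held the reverse complement of ATCAAAG at -199, GCGTG at -141 and the reverse complement of TATAAA at -28. Among 32851 promoters of the table, searched from 250 bases before to 50 after the start, 3.73% held ATCAAAG, 5.14% TTCAAAG, 32.4% GCGTG, 7.15% CACGTG and 13.6% TATAAA on either strand. None of these letters was found in the windows of Glul, Oat and Axin2, and the matched letters did not overlap each other.

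Each level below is the log2 of the processed signal minus the log2 of that array's 75th percentile, so a level can be compared between arrays for one probe but not between probes. A difference is the first level minus the second. Between 53.0% and 57.0% of the 59305 non-control spots of an array were well above background, and no spot was saturated. By the brightest probe of each gene, all 10 members cleared the scanner software's background call on all 4 arrays. Replicate spots of a probe on one array gave the only measured error: the SD of a log2 difference was 0.312 for probes under a signal of 100, 0.127 from 100 to 1000 and 0.0723 above 1000, and it covers no variation between mice. Mboat7 itself had signals of 1102 (F/F) and 861 (LKO) on chow and 1181 (F/F) and 1100 (LKO) on HFD. LKO minus F/F was -0.30 on chow and -0.27 on HFD on the log2 scale, and since the place of its probe relative to the deleted exons was not determined, these values are no check of the genotype labels. The F/F HFD array stood apart in clock genes, with Arntl at a signal of 31.0 against 102 to 178 on the other arrays. Its summed red blood cell markers were 171 in scaled signal against 86.7 to 93.1. Hba-a1, at a signal of 39811, made up most of that sum. Of the 4 red blood cell markers with a value, 3 were higher there than on F/F chow and Alas2 was lower, at -0.42.

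A 2-fold difference was used to describe size. Between LKO and F/F on chow 0 of 10 members reached it, while 2.14% of 14981 genes did, 1.11% higher in LKO and 1.03% lower. Between LKO and F/F on HFD 3 of 10 members reached it, Cdh1 upwards and Lgr5 and Hal downwards, against 4.26% of 15528 genes, 2.36% higher and 1.91% lower. Only Cyp1a2, which was lower, passed 2-fold between HFD and chow in F/F, against 8.15% of 15358 genes, 5.21% higher and 2.94% lower. Between HFD and chow in LKO 4 of 10 members passed, Cdh1 upwards and Cyp1a2, Oat and Hal downwards, against 12.2% of 15242 genes, 8.12% higher and 4.07% lower. The members were chosen with earlier results of these arrays known, and the shares over all genes are given for scale.

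**Figure D1:**
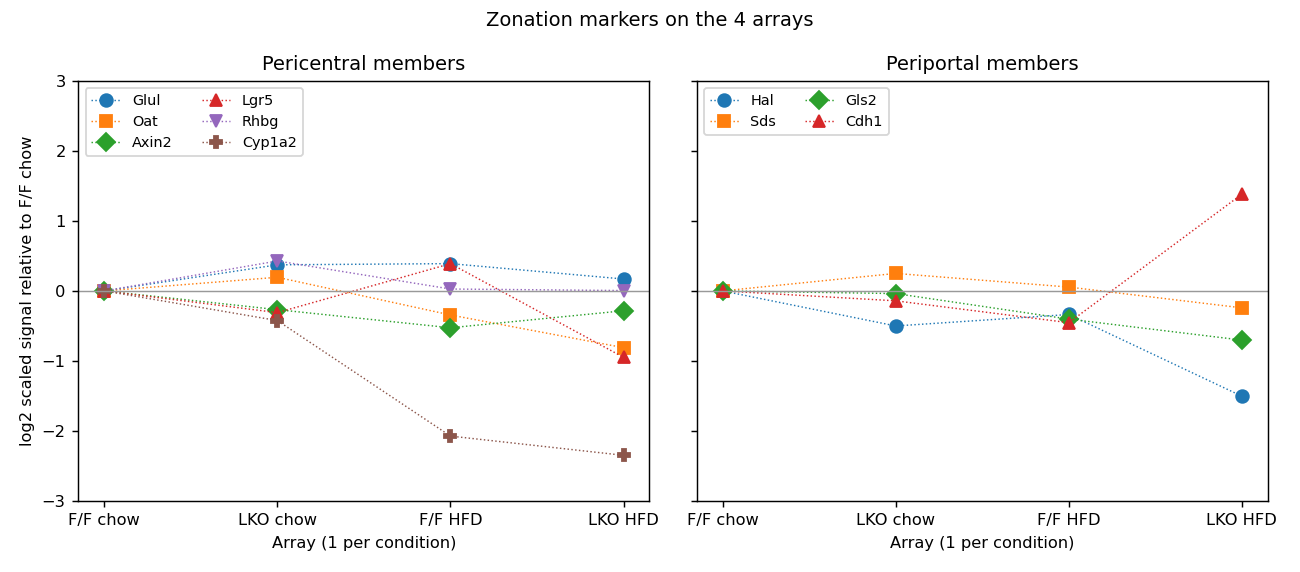
Level of each member on the 4 arrays as log2 scaled signal relative to the F/F chow array (vertical axis), for the pericentral members on the left and the periportal members on the right; each point is 1 array and dotted lines only join points of a gene. Cyp1a2 lies at -2.08 and -2.35 on the HFD arrays, and Cdh1 at 1.38 on the LKO HFD array alone.

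Cyp1a2 encodes a pericentral cytochrome P450 that oxidises caffeine and many drugs and is induced through the aryl hydrocarbon receptor. Its levels were 3.80 (F/F) and 3.37 (LKO) on chow and 1.72 (F/F) and 1.45 (LKO) on HFD. Both HFD arrays thus lay below both chow arrays, and within each diet LKO lay below F/F. The difference between HFD and chow was -2.08 in F/F, or 4.21-fold lower, and -1.93 in LKO, or 3.80-fold lower. The genotype differences were smaller, -0.42 on chow and -0.27 on HFD. Each step down this order was more than 2 spot SDs. Among 5 other targets of the aryl hydrocarbon receptor, Ahrr was not well above background on any array and the other 4 had a median HFD minus chow difference of -0.29 in F/F and 0.49 in LKO. The related Cyp1a1 differed by 0.03 between diets in F/F and by -0.43 in LKO, so the 4-fold difference of Cyp1a2 was not seen for it.

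Over the 3 arrays other than F/F chow, the genes nearest to Cyp1a2 in log2 level relative to F/F chow were Phlda1 at a Euclidean distance of 0.301, Gm5591 at 0.301 and Olfr114 at 0.348, out of 13981 genes that cleared background on every array. Relative to F/F chow, Phlda1 was at -0.65 in LKO on chow and on HFD at -2.26 in F/F and -2.30 in LKO. With 3 values per gene this likeness is a description.

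Glul encodes glutamine synthetase, the enzyme of the last hepatocytes around the central vein, which binds ammonia that escaped urea synthesis. Its levels were 5.96 (F/F) and 6.33 (LKO) on chow and 6.35 (F/F) and 6.13 (LKO) on HFD. The F/F chow array was thus the lowest, and LKO chow and F/F HFD did not differ by more than 2 spot SDs. LKO was higher than F/F on chow by 0.37 and lower on HFD by -0.22. The other 2 probes of Glul gave 0.17 and 0.16 on chow and -0.19 and -0.17 on HFD, the same directions at smaller size on chow. HFD minus chow was 0.39 in F/F and -0.20 in LKO, and the sign in LKO turned under quantile normalisation and with no scaling between arrays.

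Oat, the ornithine aminotransferase that links ornithine to glutamate in the pericentral zone, had levels lowest in LKO on HFD. They were 8.21 (F/F) and 8.41 (LKO) on chow and 7.87 (F/F) and 7.40 (LKO) on HFD. Both HFD arrays lay below both chow arrays. LKO minus F/F was 0.19 on chow and -0.47 on HFD. HFD minus chow was -0.34 in F/F and -1.01 in LKO, the latter just past 2-fold on this scale and between -1.01 and -0.52 over the alternatives. Neighbouring levels of Oat all differed by more than 2 spot SDs.

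Rhbg encodes a Rhesus family ammonia transporter of pericentral hepatocytes. Its levels were 1.59 (F/F) and 2.02 (LKO) on chow and 1.62 (F/F) and 1.60 (LKO) on HFD. Only LKO chow stood apart, by 0.43 over F/F chow, and the other 3 arrays lay within 2 spot SDs of their neighbours. On HFD the difference between LKO and F/F was -0.02, a value that changed sign under 4 of the alternatives.

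Axin2 and Lgr5 are Wnt target genes, the first a scaffold of the complex that degrades beta-catenin and the second a receptor for R-spondins. Axin2 had levels of -2.80 (F/F) and -3.07 (LKO) on chow and -3.33 (F/F) and -3.09 (LKO) on HFD, with signals between 25.4 and 34.8. No neighbouring levels of Axin2 differed by more than 2 spot SDs, and its second probe was not well above background on any array. Lgr5 had levels of -0.75 (F/F) and -1.06 (LKO) on chow and -0.36 (F/F) and -1.70 (LKO) on HFD. The F/F HFD array was thus the highest and the LKO HFD array the lowest, with every step over 2 spot SDs. LKO minus F/F was -0.31 on chow and -1.34 on HFD, or 2.53-fold lower, while HFD minus chow was 0.39 in F/F and -0.64 in LKO. The signals of Lgr5 were 132, 102, 205 and 90.9 in the same order of arrays, in the range where spots repeat less well, and with normexp background correction the HFD genotype difference was -0.92.

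The rest of the Wnt pathway was taken from lists of ligands, receptors, intracellular factors and feedback genes. Among 13 Wnt ligands and R-spondins, 2 were not well above background on any array and the median difference of the other 11 between LKO and F/F on HFD was 0.05. Wnt2, which central vein and sinusoidal endothelium supply, differed by -0.05 in that comparison, Wnt9b by 0.27 and Rspo3, the R-spondin of the central vein, by -0.16. None of these 3 ligands reached 2-fold in any comparison, and the widest value was 0.65 for Rspo3 between HFD and chow in F/F. The ligands past 2-fold were Wnt5b, at 1.01 between LKO and F/F on chow and 1.35 between HFD and chow in F/F, and Wnt5a between HFD and chow in LKO, where 1.08 is a bound because Wnt5a did not clear background on LKO chow. Among 16 Wnt receptors, which include Lgr5, 12 had a value on HFD and 10 of these were lower in LKO, with a median of -0.34. Besides Lgr5, only Fzd3 and Fzd5 were 2-fold lower among them, both at signals of at most 20.3. Neither cleared background in LKO there, so their values of -1.28 for Fzd3 and -1.19 for Fzd5 are bounds that could only be lower. Among the 10 receptors that cleared background on every array the median was -0.18. Fzd7 differed by -1.27 between HFD and chow in F/F. The 16 members of the beta-catenin complex and the TCF/LEF factors had a median of 0.02 on HFD, with no settled sign over the alternatives, 8 higher and 8 lower, and none reached 2-fold in any comparison. Of 16 Wnt feedback targets and inhibitors, which include Axin2, 9 of the 11 with a value on HFD were lower in LKO, with a median of -0.30 and none 2-fold. Sfrp5 at -0.94 and Wif1 at -0.81 did not clear background in LKO there, so they are bounds that could only be lower. Among the 9 that cleared background on every array the median was -0.24. Over all genes tested the median of this comparison was -0.03.

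Hal encodes histidine ammonia-lyase, the first enzyme of histidine breakdown and a periportal gene. Its levels were 5.20 (F/F) and 4.70 (LKO) on chow and 4.86 (F/F) and 3.70 (LKO) on HFD. LKO lay below F/F on both diets and the LKO HFD array was the lowest, with every step over 2 spot SDs. LKO minus F/F was -0.50 on chow and -1.17 on HFD, or 2.25-fold lower, and with no scaling between arrays the HFD value was -0.9994, short of 2-fold. HFD minus chow was -0.34 in F/F and -1.004 in LKO, the latter at the 2-fold line and between -1.004 and -0.53 over the alternatives. Among the 6 genes of histidine and serine breakdown, which include Hal and Sds, 5 were lower in LKO on HFD with a median of -0.40, and Hal alone reached 2-fold.

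Sds encodes serine dehydratase, which turns serine into pyruvate for gluconeogenesis. Its levels were 5.54 (F/F) and 5.79 (LKO) on chow and 5.59 (F/F) and 5.30 (LKO) on HFD. F/F chow and F/F HFD did not differ beyond 2 spot SDs, and the largest difference was -0.49 between HFD and chow in LKO. LKO minus F/F was 0.25 on chow and -0.30 on HFD. Gls2, the liver glutaminase that releases ammonia next to urea synthesis, had levels of 6.27 (F/F) and 6.24 (LKO) on chow and 5.87 (F/F) and 5.57 (LKO) on HFD. Both HFD arrays lay below both chow arrays, and the chow arrays did not differ beyond 2 spot SDs. HFD minus chow was -0.40 in F/F and -0.66 in LKO, and the second Gls2 probe gave -0.50 and -0.61.

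Ammonia and glutamine handling spans both zones, with Gls2 and the urea cycle on the portal side and Oat, Rhbg and Glul on the central side. Of its 14 genes, 13 had a value and Slc38a5 was not well above background on any array. On HFD 12 of the 13 were lower in LKO, with a median of -0.30 and none 2-fold, and on chow the median was -0.01. Between HFD and chow in LKO all 13 were lower, with a median of -0.66. General hepatocyte markers had a median of -0.52 in this comparison, a value that depended on the scaling. Among the members in this list, the sign turned for Glul under quantile normalisation and for Glul and Rhbg with no scaling between arrays. With no scaling it also turned for Arg1, with signals of 28006 on LKO chow and 29871 on LKO HFD. The same held for Glud1, at 27863 and 31908. Signs of genes other than members under quantile normalisation are not given here. The 4 that reached 2-fold between HFD and chow in LKO were Oat, Slc1a2 at -1.12, a glutamate transporter, and the urea cycle genes Asl at -1.05 and Cps1 at -1.03. Over all genes tested 4.07% were 2-fold lower there. Cps1 was also lower by -1.11 between HFD and chow in F/F.

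Cdh1 encodes E-cadherin, an adhesion protein that is stronger in periportal than in pericentral hepatocytes and is made by other epithelia as well. Its levels were -0.51 (F/F) and -0.65 (LKO) on chow and -0.96 (F/F) and 0.87 (LKO) on HFD. The LKO HFD array alone was high, and the chow arrays did not differ by more than 2 spot SDs. LKO minus F/F was -0.14 on chow and 1.84 on HFD, or 3.57-fold higher, and HFD minus chow was -0.45 in F/F and 1.52 in LKO. With normexp background correction the HFD genotype difference was 1.37. Cdh1 was thus the only member at least 2-fold higher in any comparison. The genes nearest to it over the 3 arrays were Hcn4 at a distance of 0.389, Jchain at 0.405 and Taf1a at 0.471.

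The exocrine pancreas markers, like Cdh1, were higher in LKO than in F/F on HFD. Most cholangiocyte markers were higher there too, by less. All 9 exocrine pancreas markers cleared background on every array, and 9 of 9 were higher in LKO than in F/F on HFD, 7 of them at least 2-fold, with a median of 1.90. Their summed scaled signal was 60.02 (F/F) and 39.3 (LKO) on chow and 33.2 (F/F) and 69.2 (LKO) on HFD. Pnlip, the pancreatic lipase gene, was at 1.90. The digestive enzyme genes Amy2a5 at 2.04, Cpa1 at 1.98 and Cpb1 at 1.97 showed the largest of these differences. On chow all 9 pancreatic markers were lower in LKO, with a median of -0.92, where Cdh1 differed by -0.14. Of 8 cholangiocyte markers, Sctr was not well above background on any array and 6 of the 7 with a value were higher in LKO on HFD, none 2-fold, with a median of 0.29. Their summed scaled signal was 5.21 and 4.72 on the F/F and LKO chow arrays and 13.7 and 15.6 on the F/F and LKO HFD arrays. Spp1 made up most of each sum, with signals of 840 (F/F) and 796 (LKO) on chow and 3314 (F/F) and 4158 (LKO) on HFD. No other marker had a signal above 191 (Krt19). HFD minus chow for Spp1 was 1.73 in F/F and 1.91 in LKO. Spp1 and Krt19 were the 2 markers at least 2-fold higher on HFD in LKO. Sox9 differed by -1.93 between HFD and chow in F/F. In that comparison the cholangiocyte median was 0.23 and the pancreatic median -0.76, beside -0.45 for Cdh1. The part of either cell type in the Cdh1 level was not tested.

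**Figure D2:**
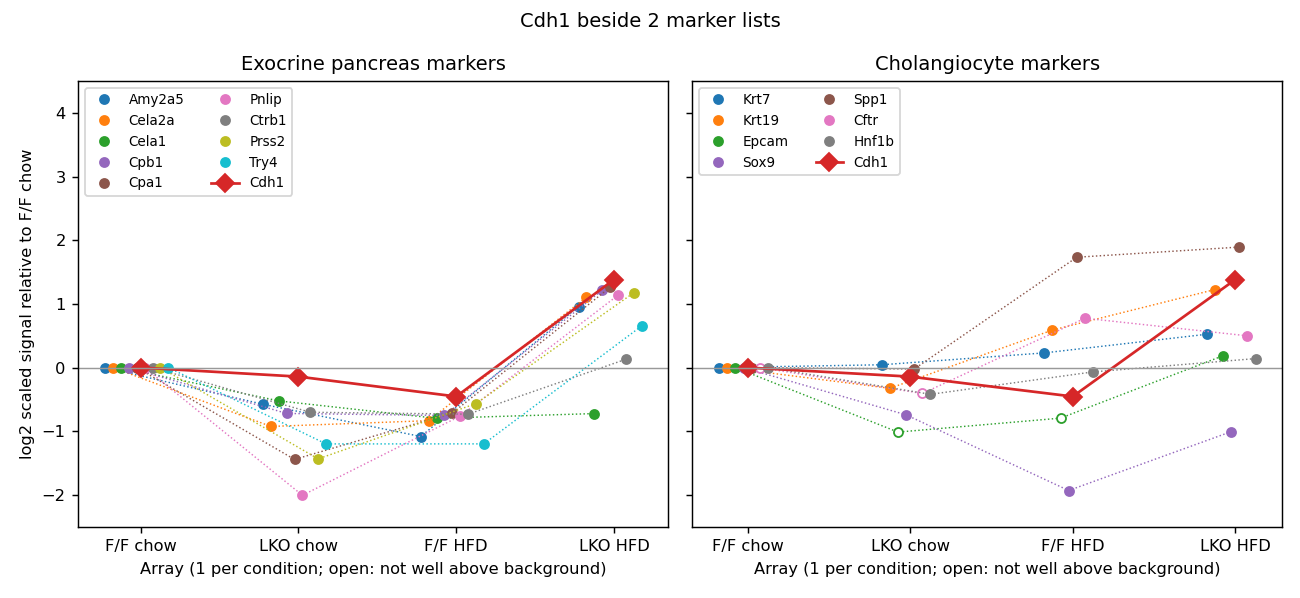
Log2 scaled signal relative to the F/F chow array (vertical axis) of Cdh1 (red diamonds) and of the 9 exocrine pancreas markers (left) or the 7 cholangiocyte markers well above background on at least 1 array (right); each point is 1 array, and open points did not clear background. Cdh1 on LKO HFD lies at 1.38, above each of the pancreatic markers, and those markers also lie below it on LKO chow.

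Set side by side, the zones differed little. The median difference between LKO and F/F on chow was -0.04 for the pericentral and -0.09 for the periportal members, and on HFD it was -0.25 and -0.30. Between HFD and chow it was -0.16 and -0.37 in F/F and -0.53 and -0.58 in LKO. The pericentral minus the periportal median was therefore 0.05, 0.05, 0.21 and 0.05 in the 4 comparisons, while single pericentral members spanned -2.08 to 0.39 between HFD and chow in F/F and single periportal members -1.17 to 1.84 between LKO and F/F on HFD. With means in place of medians the pericentral minus periportal value on HFD between genotypes was -0.36 and between diets in LKO -0.54, and Cdh1 is the periportal member farthest above the others in both. Without Cdh1 the periportal medians were -0.04, -0.30, -0.34 and -0.66.

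**Figure D3:**
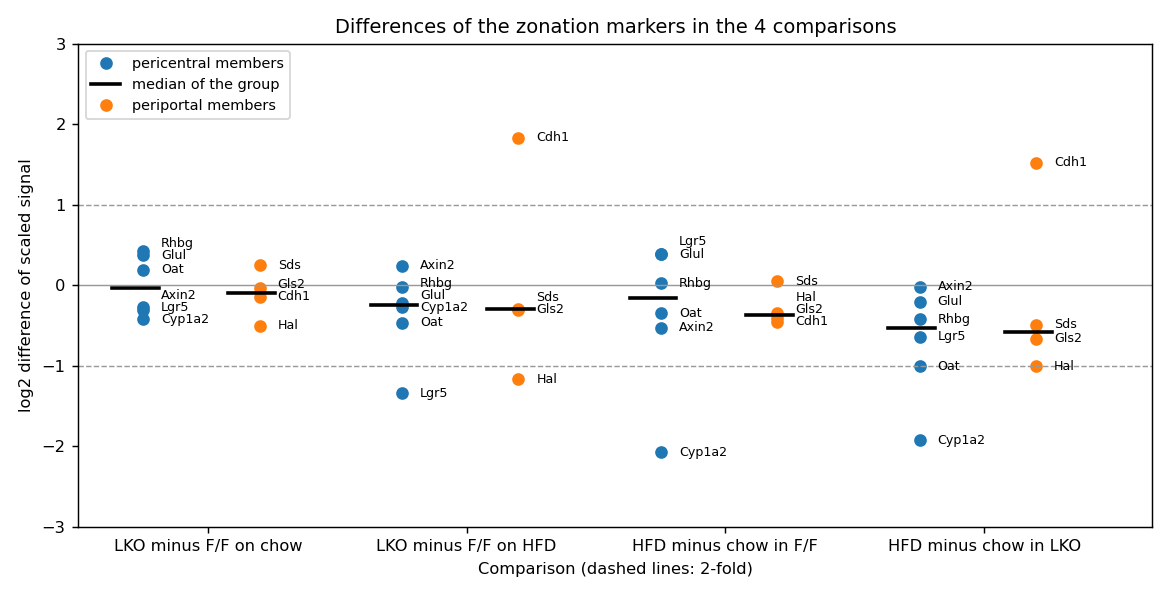
Log2 difference of scaled signal (vertical axis) of each pericentral member (blue) and periportal member (orange) in the 4 comparisons, each from 2 arrays; black bars are group medians and dashed lines mark 2-fold. The bars of the zones lie within 0.21 of each other in every comparison, with Cyp1a2, Lgr5, Hal and Cdh1 far from them.

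In wider lists of zonal genes the medians of the 2 zones also lay close together. Unlike in the members, the pericentral median was the lower one between genotypes on HFD and between diets in LKO. Between diets in F/F, where the zone medians of the members lay farthest apart, the wider lists were nearly equal, at -0.2064 (pericentral) and -0.2022 (periportal). All 25 other pericentral hepatocyte genes and all 20 other periportal ones cleared background on every array. On chow their medians between LKO and F/F were 0.03 and 0.00. On HFD they were -0.38 and -0.27, with 22 of 25 pericentral and 15 of 20 periportal genes lower in LKO. Pericentral genes past 2-fold were Cyp2c37 at -1.11 and Cyp2c50 at -1.06, and periportal ones were Hsd17b6 at -1.37, Etnppl at -1.31 and the glucose-6-phosphatase gene G6pc at -1.24, all lower. Over all genes tested 1.91% were 2-fold lower and 2.36% higher in this comparison. Cyp7a1, the rate-limiting enzyme of bile acid synthesis, was the only gene of either list past 2-fold between genotypes on chow, at -1.58.

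Between HFD and chow the medians of these lists were -0.21 for pericentral and -0.20 for periportal genes in F/F, and -0.62 and -0.54 in LKO. In LKO 8 of 25 pericentral genes were 2-fold lower and 0 higher, and 4 of 20 periportal genes were 2-fold lower and 2 higher. In F/F 5 pericentral genes were 2-fold lower and 1 higher, and 1 periportal gene was 2-fold lower and 2 higher. Over all genes tested 4.07% were 2-fold lower and 8.12% higher in LKO, and 2.94% lower and 5.21% higher in F/F. Several drug-oxidising P450 genes were lower, as Cyp1a2 was: Cyp2c37 differed by -2.24 in LKO and -1.52 in F/F, Cyp2c50 by -2.20 and -1.50, Cyp2c29 by -1.82 and -1.41, and Cyp3a11 by -1.40 and -2.00. These Cyp2c genes have similar sequences, and whether their probes tell them apart was not tested. Por, which passes electrons to these enzymes, differed by -1.32 in LKO and -0.83 in F/F, and the amino acid transporter gene Slc1a4 by -1.46 and -1.03. Cyp2e1, a pericentral landmark, differed by -0.62 in LKO and -0.28 in F/F, and Cyp2f2, a periportal landmark, by -0.74 and -0.72. The highest periportal value was that of Apoa4, an apolipoprotein, at 1.61 in LKO and 3.17 in F/F. The pericentral gene higher in F/F was Slc13a3, a dicarboxylate transporter, at 1.44 there and 0.75 in LKO, and the other periportal gene higher in F/F was G6pc at 1.06, with -0.86 in LKO. Hsd17b13, which encodes a lipid droplet protein, was at 1.05 and 0.47. Pck1, the first committed enzyme of gluconeogenesis, differed by -0.65 in LKO and -0.13 in F/F.

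All 8 general hepatocyte markers, which were not chosen for a zone, were lower on HFD than on chow in LKO. Their median was -0.52, beside member medians of -0.53 (pericentral) and -0.58 (periportal). Whether any of the 8 is zonal was not tested. Under quantile normalisation the hepatocyte median was -0.02 and the member medians -0.44 and -0.35, and with no scaling between arrays they were -0.05, -0.06 and -0.11. Their summed scaled signal was 4344 (F/F) and 4430 (LKO) on chow and 3467 (F/F) and 3125 (LKO) on HFD. Between LKO and F/F on HFD 7 of the 8 were lower, with a median of -0.16 that changed sign under the alternatives, up to 0.04. Stellate cell markers went the other way, 6 of 6 higher on HFD in LKO with a median of 0.57, as did 5 of 6 sinusoidal endothelial markers with a median of 0.47 and 4 of 6 Kupffer cell markers with a median of 0.73. The 6 markers of pericentral endothelium had a median of -0.11 there, which reached 0.04 under the alternatives, and none passed 2-fold. Fasting-response genes, which include G6pc and Pck1, had a median of -0.30 between LKO and F/F on HFD with 9 of 10 lower, clock genes one of -0.61 with 10 of 13 lower, and red blood cell markers one of -0.96 with 4 of 4 lower. The part of these differences between the livers in the members' values was not tested.

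**Figure D4:**
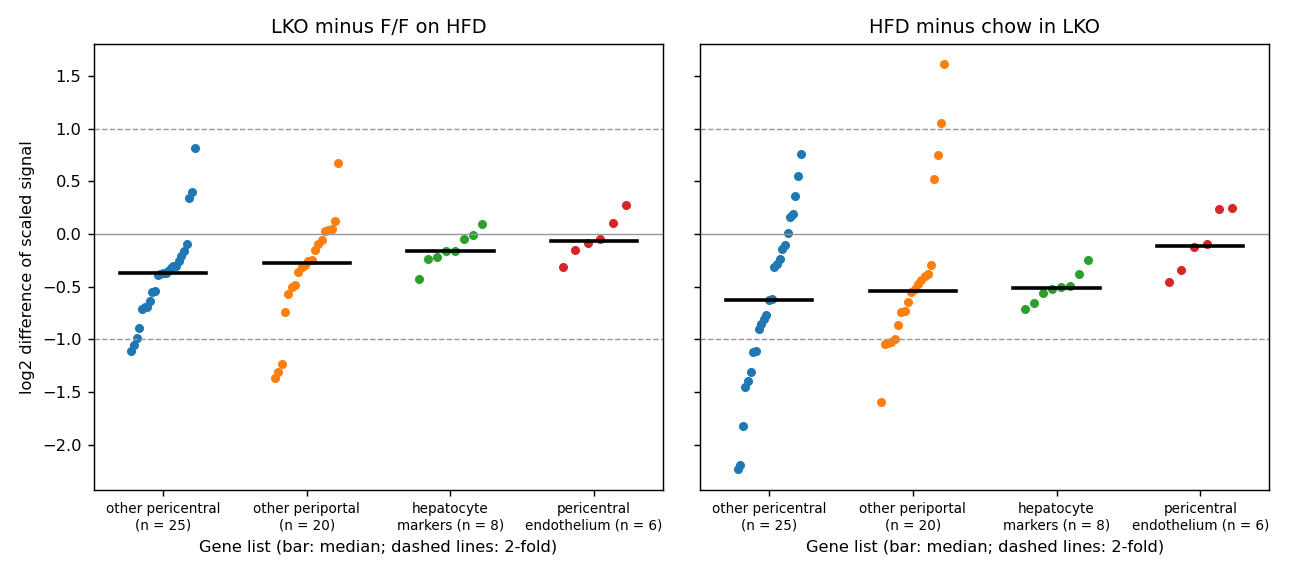
Log2 difference of scaled signal (vertical axis) for each gene of 4 lists, between LKO and F/F on HFD (left) and between HFD and chow in LKO (right); each point is a gene, ordered by value within its list, black bars are medians and dashed lines mark 2-fold. In LKO the bars of the pericentral, periportal and general hepatocyte genes lie at -0.62, -0.54 and -0.52.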

How the data were processed

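RNA of the 4 livers was labelled with Cy3 and read with Agilent Feature Extraction 12.0.3.1, per the labels. The authors deposited each array's processed spot intensity, which the software had already corrected for background, and a value table whose intensity was the same signal multiplied by 1 factor per array (2.10 to 2.63); how that factor was set is not given in the sources used here. Control and outlier spots were left out, log2 was taken and each array's log2 75th percentile subtracted. Probe accessions were matched to RefSeq symbols for 33767 of 56605 probes (59.7%), and a gene was represented by its brightest probe. A difference needed at least 1 array well above background. With only 1, the dimmer array was set to the higher of its own signal and the lowest signal well above background there (7.80 to 8.35), which gives a bound. No test was run, since each condition had 1 array and no replicate. The array number limits the precision.

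The members and the 21 gene lists were chosen with earlier results of these data known. Genes named were the members, list genes at least 2-fold in a comparison, set landmark genes and the 3 nearest genes of the widest-ranging member of each zone. The array headers name another genome build than the promoter table, so the only coordinates given are those of the promoter stretches, on the promoter table's build. Alternatives were normexp background correction (limma 3.58.1, R 4.3.3, offset 50), quantile normalisation, another percentile set, the deposited table, stricter and no filters, mean of probes, folds of 1.5 and 4 and, chosen after seeing the data, no scaling, no Cdh1 and more zonal genes. Scripts used Python 3.11.15 with pandas 2.3.3 and were tested on simulated data.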

Additional observations from a re-analysis of the deposited data

Results flagged for a closer look

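In 5 members a genotype or diet difference had opposite signs under the levels of the other factor, each side by more than 1 spot SD. Axin2 and Rhbg also changed sign, but with a side within 1 spot SD. Each value rests on 1 array per condition, and the difference between the paired values was not tested. Glul was higher in LKO than in F/F on chow (0.37) and lower on HFD (-0.22), and accordingly higher on HFD in F/F (0.39) and lower in LKO (-0.20). Oat was higher in LKO on chow (0.19) and lower on HFD (-0.47). Sds was likewise higher in LKO on chow (0.25) and lower on HFD (-0.30). For Lgr5, HFD minus chow was 0.39 in F/F and -0.64 in LKO. Cdh1 was lower in LKO on chow (-0.14) and higher on HFD (1.84), and lower on HFD in F/F (-0.45) and higher in LKO (1.52), and the chow genotype value of Cdh1 lay within 2 spot SDs.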

How the results depend on the processing

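No paired analysis was possible because each condition had 1 array and no replicate could be left out. Of 84 recomputed zone medians and member counts, 69 kept their value within the replicate spot spread or, for counts, within 1.5 times, and 15 moved, some with the sign of the zone difference turned. Many of the 69 could not move. All 10 members cleared background on every array, so the filter settings left them as they were. A factor per array cancels in the zone difference, so settings that change only that factor left it as it was. The 69 are therefore no measure of robustness. The pericentral minus periportal median between LKO and F/F on HFD was -0.36 with means of members and -0.0785 with the other zonal genes added. Between HFD and chow in F/F it was -0.0717 with means and 0.0821 with the other genes, and in LKO it was -0.54 with means, -0.0872 with the other genes and -0.0866 under quantile normalisation. At 4-fold the members passing between LKO and F/F on HFD fell from 3 to 0, with 2 at 2-fold under normexp, where Lgr5 was lost, and with no scaling, where Hal was, and between HFD and chow in LKO from 4 to 0. In the latter comparison 2 passed 2-fold under normexp, under quantile normalisation, with the percentile taken over detected probes, in the deposited table and with no scaling, since Oat and Hal lay at the line. With the mean of all probes 2 passed between HFD and chow in F/F. Of 320 single member values, 232 stayed within the spread and 88 moved. The filter settings could not move any of them, and the mean of probes could not move the 7 members with 1 probe. Of 40 differences, 7 changed sign under some setting, in Glul, Axin2, Rhbg and Cdh1, and none of those past 2-fold did. Normexp lowered the share of all genes past 2-fold to 0.262%, 1.17%, 2.38% and 4.55%, and with no filter or floor it was 6.30%, 8.03%, 11.6% and 14.6%. With no scaling, 91.9% of the genes past 2-fold between HFD and chow in LKO were higher against 66.6% in the reported scaling and 77.7% with the deposited values, and the median of all genes moved from -0.07 to 0.39. The same shares were 63.9% in F/F, 76.1% with the deposited values and 83.3% with no scaling, and 55.3% between LKO and F/F on HFD against 73.7% with no scaling. Restricted to genes above background on all arrays, 1.08% and 2.64% of genes passed 2-fold between genotypes on chow and HFD. Axin2, Lgr5, Cdh1 and Rhbg had signals under 1000 on every array, where replicate spots agreed less closely.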

Other observations

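Some genes of the accompanying lists passed 2-fold without belonging to a zonal list. Between LKO and F/F on HFD these were the Kupffer cell gene Marco at -1.64, the aryl hydrocarbon receptor targets Cyp1b1 at 1.45 and Cyp1a1 at -1.19, the haemoglobin gene Hbb-b1 at -1.02 and the clock genes Arntl at 2.35, Cry1 at 1.06, Ciart at -1.48, Dbp at -1.23 and Nr1d1 at -1.05. In F/F, HFD minus chow passed it for Pdk4, a fasting-response gene, at -2.24, Arntl at -2.47, Cry1 at -1.51, Dbp at 1.01, Nqo1 at 1.42 and the haemoglobin gene Hba-a1 at 1.12. In LKO, HFD minus chow passed it for the stellate cell gene Pdgfrb at 1.41, the endothelial gene Lyve1 at 1.02, the Kupffer cell genes Cd5l at 1.29, Marco at -1.32 and Timd4 at -1.12, and Alas2 of red blood cells at -1.34. It also did so for Cyp1b1 at 1.195 and Nqo1 at 1.04. Each value rests on 1 array per condition.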
